A study of Mus musculus with 37 samples.

Results

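The genes described here are the C1q-like ligands C1ql1, C1ql2, C1ql3 and C1ql4, the cerebellin ligands Cbln1, Cbln2, Cbln3 and Cbln4, and Adgrb3, the receptor of the C1q-like ligands. They were chosen by name as secreted synaptic organizers and their receptor, and make up 9 of the 48795 genes in the count table. RNA of the hippocampus was sequenced from 3 Kdm1a-ifKO mice and 3 control mice, with 1 library per mouse, to learn which transcripts change when the histone demethylase Kdm1a is removed from adult neurons. All animals were male, were on a C57BL/6J background and received tamoxifen in 5 intragastric administrations on alternate days at 8 weeks of age. The Kdm1a-ifKOs carried a Kdm1a allele with floxed exons 5 and 6 together with Camk2a-creERT2, and the controls, labelled WT, were littermates without the recombinase. The Camk2a promoter limits the deletion to principal neurons of the forebrain, whereas the RNA came from the whole hippocampal tissue, glia and interneurons included. The age at which the RNA was collected is not given in the sources used here. A CTCF ChIA-PET library, a map of chromatin loops in sorted Camk2a+ hippocampal neurons labelled WT, was used to describe the surroundings of the genes. By the methods of the study, such nuclei came from Camk2a-creERT2 x CAG-Sun1/sfGFP mice 1 month after tamoxifen and were sorted by GFP. These mice thus carried the recombinase, unlike the RNA-seq controls.

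C1q-like proteins and cerebellins are small secreted proteins with a C1q-type globular domain, and they assemble into multimers in the synaptic cleft. C1q-like proteins bind the adhesion receptor encoded by Adgrb3, and the C1ql2 and C1ql3 proteins of hippocampal mossy fibres also link presynaptic neurexins to postsynaptic kainate receptors. Cerebellins bridge presynaptic neurexins and postsynaptic delta glutamate receptors, a role best known from the synapses between granule cells and Purkinje cells in the cerebellum.

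The RNA-seq libraries held between 18985542 and 19469947 counts, with at least 1 count in 23412 to 23939 genes. Kdm1a itself had counts of 1521, 1545 and 1481 in the controls and of 764, 726 and 748 in the Kdm1a-ifKOs (log2FC -1.07, standard error 0.0559, adjusted p = 6.24e-08). Every Kdm1a-ifKO library was below every control library for this gene, and all 6 libraries fit their labels. On the second principal component (16.6% of the variance) control replicate 3 and Kdm1a-ifKO replicate 2 stood apart from the rest. Results are therefore also given without this pair where that changes them. Expression is given in CPM, read counts divided by the library size after TMM normalization, in counts per 1000000 reads, and differences as log2FC, Kdm1a-ifKO over control, from the quasi-likelihood test of edgeR, whose p-values were adjusted by Benjamini-Hochberg over 16799 genes. The median log2FC of all tested genes was -0.0034.

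Of the 9 genes, 4 had an adjusted p under 0.05, against 8.85% of all tested genes. Transcripts of 3 ligand genes of the C1q-like family, C1ql1, C1ql2 and C1ql4, were higher in Kdm1a-ifKOs (background 6.04%), and those of 1 cerebellin gene, Cbln2, were lower (background 2.82%). The same 4 genes were those without overlap between the genotypes, which held for 30.0% of all tested genes. C1ql4 alone also had a log2FC over 1, and 1.36% of all tested genes passed both thresholds. All 9 genes passed the filter on low counts, C1ql4 through the Kdm1a-ifKO libraries alone. In tissue RNA, a change in the number of cells of a type and a change in RNA per cell cannot be told apart.

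**Figure D1:**
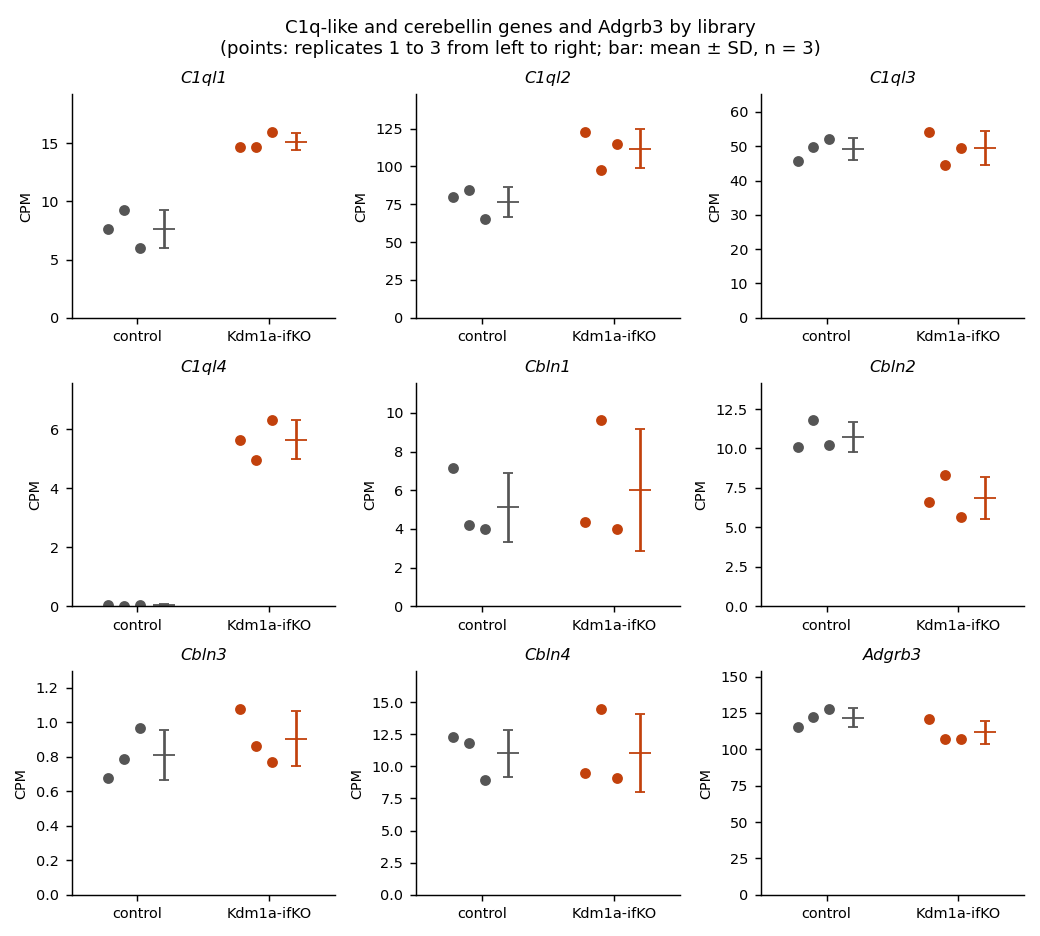
CPM of the 9 genes (vertical axes, each from 0 on its own scale) in the 3 control libraries (grey) and the 3 Kdm1a-ifKO libraries (orange). Points are single mice and bars are means ± SD (n = 3). The genotypes separate for C1ql1, C1ql2, C1ql4 and Cbln2 and overlap for the other 5 genes.

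C1ql4 was nearly silent in control hippocampi and present in every Kdm1a-ifKO library. Its counts were 1, 0 and 1 in the controls and 110, 98 and 123 in the Kdm1a-ifKOs. These correspond to 0.0522, 0 and 0.0537 CPM in the controls and to 5.65, 4.97 and 6.31 CPM in the Kdm1a-ifKOs. The lowest Kdm1a-ifKO library thus held 98 reads, and the highest control library 1 read. Over the summed 331 and 2 reads, the ratio of normalized counts was 160 with a 95% counting interval from 44.0 to 1330, which covers counting error only. The adjusted p was 7.30e-08, and it was under 0.05 in each of the 6 fits that left out 1 library. Because only 2 control reads were available, the size of the increase is poorly known, and even this wide interval leaves out the spread between mice. C1ql4 (ENSMUSG00000001076) lies on chromosome 15 from 99084086 to 99087817 on the minus strand (GRCm38), and overlaps no other annotated gene.

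C1ql1 encodes the ligand that climbing fibres of the cerebellum release onto Purkinje cells. Its level was 7.63, 9.28 and 6.01 CPM in the controls and 14.7, 14.7 and 16.0 CPM in the Kdm1a-ifKOs. The means of 7.64 ± 1.64 and 15.1 ± 0.754 CPM (SD, n = 3) corresponded to a log2FC of 0.98 (standard error 0.134, adjusted p = 5.07e-04). All Kdm1a-ifKO libraries were above all control libraries, and the log2FC lay between 0.84 and 1.14 when single libraries were left out, always with an adjusted p under 0.05. C1ql1 is also known from oligodendrocyte precursors. Of 4 marker genes of these cells, 0 passed the test, and their summed level was 179 to 191 CPM in the controls and 189 to 210 CPM in the Kdm1a-ifKOs. C1ql1 (ENSMUSG00000045532, chromosome 11, 102939264 to 102946688, minus strand) overlaps Gm26668 on the opposite strand. The strand setting of the counting is not given in the sources used here, so the reads of both genes may not be separated.

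C1ql2 encodes a mossy fibre ligand of dentate granule cells and was the most abundant of the 9 transcripts per length. Its level was 79.5, 84.4 and 65.2 CPM in the controls and 123, 97.3 and 115 CPM in the Kdm1a-ifKOs. The highest control and the lowest Kdm1a-ifKO library were 84.4 and 97.3 CPM, so the groups did not overlap. The means were 76.3 ± 9.99 and 111.6 ± 13.1 CPM (SD, n = 3), and the log2FC was 0.55 with a standard error of 0.115 (adjusted p = 0.0264). The call depended on single libraries, and the adjusted p was 0.0669 without control replicate 1, 0.0639 without Kdm1a-ifKO replicate 1 and 0.118 without Kdm1a-ifKO replicate 3. Without control replicate 3 and Kdm1a-ifKO replicate 2 together, it was 5.33e-06. Of 7 other genes that mark dentate granule cells, 0 passed the test, and their summed level was 495 to 543 CPM in the controls and 477 to 561 CPM in the Kdm1a-ifKOs. C1ql2 (ENSMUSG00000036907) lies on chromosome 1 from 120340582 to 120343174 on the plus strand.

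C1ql3, the partner of C1ql2 in mossy fibres, overlapped between the genotypes. It stood at 45.8, 49.9 and 52.0 CPM in the controls and at 54.3, 44.5 and 49.6 CPM in the Kdm1a-ifKOs. The ranges overlapped almost fully, and the log2FC was 0.01 with a 95% interval from -0.16 to 0.18 (adjusted p = 0.969). C1ql3 (ENSMUSG00000049630, chromosome 2, 13003457 to 13011806, minus strand) overlaps Gm37811 and Gm37824 on the opposite strand. A difference in log2FC between C1ql2 and C1ql3 was not tested.

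Cbln2 was the cerebellin gene that was lower in Kdm1a-ifKOs. Its level was 10.1, 11.8 and 10.2 CPM in the controls and 6.63, 8.31 and 5.64 CPM in the Kdm1a-ifKOs. Every Kdm1a-ifKO library was below every control library. The means were 10.7 ± 0.960 and 6.86 ± 1.35 CPM (SD, n = 3), and the log2FC was -0.64 with a standard error of 0.142 (adjusted p = 0.0136). The adjusted p rose to 0.0527 without control replicate 2, to 0.0608 without Kdm1a-ifKO replicate 1 and to 0.0551 without Kdm1a-ifKO replicate 3. Without the pair of libraries set apart above, the adjusted p was 0.00121. Cbln2 (ENSMUSG00000024647) lies on chromosome 18 from 86711110 to 86718283 on the plus strand.

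Cerebellin genes are also expressed in thalamus, where the vesicular glutamate transporter gene Slc17a6 is a marker. Slc17a6 stood at 17.3, 22.1 and 19.1 CPM in the controls and at 6.73, 12.4 and 8.41 CPM in the Kdm1a-ifKOs (log2FC -1.09, adjusted p = 0.0215). It was thus lower in every Kdm1a-ifKO library, with an adjusted p of 0.0939 without control replicate 3 and of 0.115 without Kdm1a-ifKO replicate 3. Of the 7 thalamic markers, 1 was higher, namely Prkcd (log2FC 0.57), 1 was lower, namely Slc17a6, and their summed level was 116 to 128 CPM in the controls and 109 to 128 CPM in the Kdm1a-ifKOs. Of the 7 interneuron markers, Vip (log2FC -0.46) and Npy (log2FC -0.31) were lower, and the summed level was 855 to 924 CPM in the controls and 821 to 854 CPM in the Kdm1a-ifKOs. The call of Vip was lost without Kdm1a-ifKO replicate 1 (adjusted p = 0.063) and without Kdm1a-ifKO replicate 3 (adjusted p = 0.0548). No marker of these lists was at 0 in all libraries, and the part of these cells in the level of Cbln2 was not tested.

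The other 3 cerebellin genes overlapped between the genotypes. Cbln1, the cerebellin of cerebellar granule cells, stood at 7.16, 4.20 and 3.97 CPM in the controls and at 4.37, 9.63 and 4.00 CPM in the Kdm1a-ifKOs. Cbln4 stood at 12.3, 11.8 and 8.91 CPM in the controls and at 9.45, 14.5 and 9.08 CPM in the Kdm1a-ifKOs. Kdm1a-ifKO replicate 2, one of the libraries set apart on the second principal component, was the highest of the 6 libraries for both genes. The log2FC of Cbln1 was 0.23 with a 95% interval from -0.82 to 1.28 (adjusted p = 0.794), and it was -0.44 without control replicate 3 and Kdm1a-ifKO replicate 2. That of Cbln4 was 0.00 with an interval from -0.45 to 0.46 (adjusted p = 0.997), and it was -0.37 without that pair (adjusted p = 0.0678). These wide intervals leave both directions possible. The cerebellar granule cell markers Gabra6 and Fat2 were under the filter on low counts, with a summed level of at most 0.698 CPM in any library.

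Cbln3, which encodes a cerebellin that is secreted together with Cbln1, was low in both genotypes. Its counts were 13, 15 and 18 in the controls and 21, 17 and 15 in the Kdm1a-ifKOs, and the groups overlapped. The log2FC was 0.16 with a 95% interval from -0.49 to 0.81 (adjusted p = 0.796), so a difference of moderate size was not detectable at this depth. Cbln1 (ENSMUSG00000031654) lies on chromosome 8 from 87468405 to 87472609, Cbln3 (ENSMUSG00000040380) on chromosome 14 from 55878913 to 55884392 and Cbln4 (ENSMUSG00000067578) on chromosome 2 from 172036233 to 172043466, all on the minus strand. Cbln1 overlaps Gm2694 on the opposite strand.

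Adgrb3, the receptor of the C1q-like ligands, overlapped between the genotypes. Its RNA stood at 115, 122 and 128 CPM in the controls and at 121, 107 and 107 CPM in the Kdm1a-ifKOs. Kdm1a-ifKO replicate 1 lay within the range of the controls. The log2FC was -0.13 with a 95% interval from -0.26 to 0.01 (standard error 0.0631, adjusted p = 0.241). The gene (ENSMUSG00000033569) spans chromosome 1 from 25067476 to 25829707 on the minus strand and overlaps several annotated genes.

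**Figure D2:**
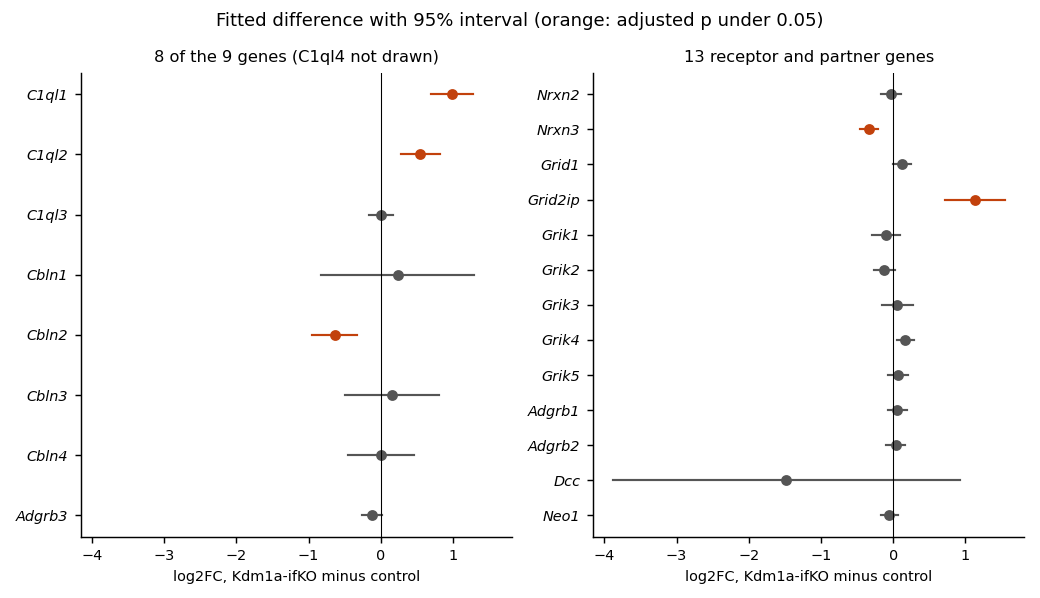
Fitted log2FC (horizontal axis, Kdm1a-ifKO minus control) with 95% intervals for 8 of the 9 genes on the left and for 13 receptor and partner genes on the right, with an adjusted p under 0.05 in orange. C1ql1 and C1ql2 lie to the right of 0 and Cbln2 to the left, and among the partners Grid2ip and Nrxn3 pass the test; C1ql4 is not drawn because only 2 control reads set its fold.

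Transcript levels were compared between the genes in TPM, which divides the counts by the exon length of the gene. In the controls C1ql2 was first with 151.9 ± 20.2 TPM (SD, n = 3), followed by C1ql3 with 77.2 ± 4.61 TPM. Adgrb3 (26.0 ± 1.32 TPM), C1ql1 (20.6 ± 4.45 TPM), Cbln4 (15.1 ± 2.55 TPM) and Cbln2 (14.7 ± 1.32 TPM) followed, and the library ranges of neighbours in this order overlapped. Cbln1 (6.70 ± 2.36 TPM), Cbln3 (0.662 ± 0.116 TPM) and C1ql4 (0.0953 ± 0.0825 TPM) were lower and did not overlap with each other. In the Kdm1a-ifKOs, C1ql1 stood above Adgrb3 with 41.1 ± 1.92 TPM, and C1ql4 reached 15.3 ± 1.73 TPM, a level whose range overlapped with that of Cbln4 at 15.2 ± 4.30 TPM. The order depends on the division by length, since without it Adgrb3 (18.6 kb of exons) was first in the controls and C1ql2 came next.

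The C1q-like family had a higher summed transcript level in Kdm1a-ifKOs, and its composition differed. The summed TPM of the 4 genes was 227 to 271 in the controls and 321 to 385 in the Kdm1a-ifKOs, without overlap. C1ql4 made up 0.04% ± 0.0348 of that sum in the controls and 4.28% ± 0.346 in the Kdm1a-ifKOs (SD, n = 3). The share of C1ql1 was 8.20% ± 1.05 and 11.6% ± 1.14, and that of C1ql3 31.1% ± 4.08 and 21.8% ± 0.495. The share of C1ql2 was 60.6% ± 3.23 in the controls and 62.3% ± 1.20 in the Kdm1a-ifKOs, so C1ql2 remained the main transcript of the family. The summed TPM of the cerebellins was 32.1 to 40.8 in the controls and 26.1 to 45.2 in the Kdm1a-ifKOs, and the ranges overlapped. Within it, the share of Cbln2 was 39.9% ± 5.06 in the controls and 29.0% ± 3.14 in the Kdm1a-ifKOs. These sums and shares are given as descriptions without a test.

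**Figure D3:**
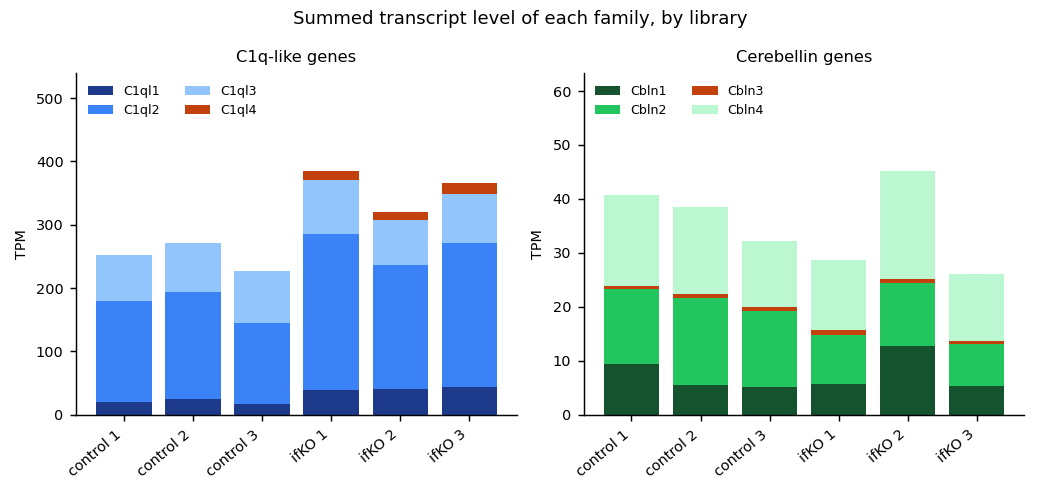
Stacked TPM (vertical axes, from 0) of the 4 C1q-like genes on the left and of the 4 cerebellin genes on the right, with 1 bar per library. The C1q-like sums of the 3 Kdm1a-ifKO libraries, 321 to 385 TPM, lie above those of the controls, 227 to 271 TPM, and C1ql4 is visible in Kdm1a-ifKO bars alone; the cerebellin sums overlap.

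The known receptors and partners of these ligands were taken as a list of 15 genes. Of these, 1 was higher and 1 was lower in Kdm1a-ifKOs, beside 6.04% higher and 2.82% lower over all tested genes, and the other 13 did not pass the test. The median log2FC of the 15 was 0.03. Grid2ip, which encodes delphilin, a scaffold protein of delta glutamate receptors, rose from 2.09, 1.99 and 1.77 CPM in the controls to 4.42, 3.45 and 4.97 CPM in the Kdm1a-ifKOs. Its log2FC was 1.13 (standard error 0.193, adjusted p = 0.00248), and the groups did not overlap. Nrxn3, a presynaptic neurexin, fell from 204, 206 and 234 CPM to 170, 173 and 168 CPM, without overlap (log2FC -0.34, standard error 0.0586, adjusted p = 0.00286). Both calls held in all 6 fits that left out 1 library. Nrxn2 was at a log2FC of -0.03 (adjusted p = 0.845), and the delta receptor gene Grid1 was at 0.12 (adjusted p = 0.225). The 5 kainate receptor genes, Grik1 to Grik5, ranged from -0.12 for Grik2 to 0.17 for Grik4, and 0 of the 5 passed the test. Dcc, a netrin receptor and reported partner of Cbln4, had the lowest fitted log2FC of the 15 (-1.48, adjusted p = 0.401) but also the largest spread. It stood at 6.87 ± 6.77 CPM in the controls and 2.45 ± 0.904 CPM in the Kdm1a-ifKOs (SD, n = 3). The controls were at 3.66, 2.31 and 14.7 CPM, so control replicate 3 set most of that mean. When single libraries were left out, the log2FC of Dcc lay between -1.90 and -0.28.

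Among 16 other neurexin ligands and secreted organizers, such as neuroligins, LRRTMs, neurexophilins and neuronal pentraxins, 0 were higher (6.04% of all tested genes), 1 was lower (2.82% of all tested genes) and the median log2FC was -0.08. The lower gene was Lrrtm2, a postsynaptic neurexin ligand, with 60.6 ± 7.58 CPM in the controls and 47.9 ± 1.70 CPM in the Kdm1a-ifKOs (SD, n = 3, log2FC -0.34, adjusted p = 0.0251). Its call was lost without control replicate 2 (adjusted p = 0.0598) and without Kdm1a-ifKO replicate 1 (0.0639), 2 (0.0503) or 3 (0.0868), and without the pair set apart above (0.0518).

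Of 22 other genes that encode a C1q-type domain, 16 were tested. Of these, 3 were higher (6.04% of all tested genes), 1 was lower (2.82% of all tested genes) and the median log2FC was 0.21. C1qtnf6, a gene of the C1q and tumour necrosis factor related family, rose from 3.34, 3.30 and 3.01 CPM to 7.09, 5.83 and 5.28 CPM, without overlap (log2FC 0.91, standard error 0.161, adjusted p = 0.00314). C1qtnf12 of the same family had a log2FC of 0.45 (adjusted p = 0.0156), lost without Kdm1a-ifKO replicate 1 (0.056), without Kdm1a-ifKO replicate 2 (0.0565) and without the pair (0.0614). Caprin2, which encodes an RNA-binding protein with this domain, had a log2FC of -0.43 (adjusted p = 0.0227), lost without control replicate 1 (0.0636) or 3 (0.0572) and without Kdm1a-ifKO replicate 1 (0.0946) or 3 (0.061). C1qb, a complement gene of microglia, had a log2FC of 0.35 (adjusted p = 0.0381), lost in 6 of 13 other fits. These were the fits without control replicate 1 (0.0845), 2 (0.093) or 3 (0.115), without Kdm1a-ifKO replicate 2 (0.0902) or 3 (0.112) and without the pair (0.221). Microglial markers moved with C1qb. Of 5 such markers, Cx3cr1, Tmem119 and Csf1r were higher, none was at 0, and their summed level was 227 to 249 CPM in the controls and 261 to 323 CPM in the Kdm1a-ifKOs. Each of these marker calls was lost in at least 4 of the 13 other fits, and the part of microglia in the level of C1qb was not tested. Among the untested genes of this list, C1qtnf5 was at 0 in all libraries. It overlaps Mfrp on the same strand and other genes on the opposite strand, and the part of read assignment in this value was not tested.

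Marker lists of further cell types held 2 called genes. Slc1a3, a glutamate transporter gene and 1 of 5 astrocyte markers, was higher with a log2FC of 0.22 (adjusted p = 0.0161). Its call was lost without control replicate 1 (0.0523) or 2 (0.096) and without Kdm1a-ifKO replicate 1 (0.0503) or 3 (0.0889). Kl, which encodes klotho and was 1 of 3 choroid plexus markers, was higher with a log2FC of 1.27 (adjusted p = 1.32e-07) and held in all 13 other fits. The other markers of that list did not move with Kl. Ttr was at a log2FC of -1.49 (adjusted p = 0.337) and Folr1 at 0.12 (adjusted p = 0.885). No tested marker of CA3 pyramidal and mossy cells (6), CA1 pyramidal cells (4), habenula (2), Cajal-Retzius cells (3), oligodendrocytes (4), endothelial cells (3) or ependyma (3) passed the test. The summed level of the CA3 and mossy cell markers was still 193 to 201 CPM in the controls and 214 to 256 CPM in the Kdm1a-ifKOs. Their median log2FC was 0.33, with a range from -0.55 for Iyd to 0.60 for Drd2.

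Promoter sequences from RefSeq (GRCm38.p6) were examined for 6 of the 9 genes, over 250 bases before to 50 bases after the RefSeq start. C1ql1, Cbln1 and Cbln2 had no entry, so of the genes that passed the test only C1ql2 and C1ql4 are covered. Those of C1ql4, C1ql2 and Cbln3 are shown up to the RefSeq or the GENCODE start, whichever lay further upstream, for the contrast in CG dinucleotides, which are written in capitals, between the former pair, whose RNA was higher in Kdm1a-ifKOs, and Cbln3, whose RNA overlapped between the genotypes. Each runs 5′ to 3′ on the strand of its gene, and the positions are chr15:99087818-99087978, chr1:120340332-120340581 and chr14:55884393-55884506 on the minus, plus and minus strands.
C1ql4: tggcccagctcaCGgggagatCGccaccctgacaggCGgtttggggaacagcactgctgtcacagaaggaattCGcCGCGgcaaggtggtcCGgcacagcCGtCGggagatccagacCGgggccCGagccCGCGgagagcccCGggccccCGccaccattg
C1ql2: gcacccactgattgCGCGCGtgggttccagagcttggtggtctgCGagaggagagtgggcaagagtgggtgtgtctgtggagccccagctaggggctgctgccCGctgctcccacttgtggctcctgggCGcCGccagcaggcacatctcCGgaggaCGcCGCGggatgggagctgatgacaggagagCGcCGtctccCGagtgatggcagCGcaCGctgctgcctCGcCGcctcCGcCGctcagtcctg
Cbln3: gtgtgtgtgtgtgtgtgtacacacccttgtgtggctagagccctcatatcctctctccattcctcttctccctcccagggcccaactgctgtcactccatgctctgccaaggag
The printed stretches hold 15 CG in 161 bases for C1ql4, 20 in 250 bases for C1ql2 and 0 in 114 bases for Cbln3. Over the full 300 bases, the counts were 28 for C1ql4, 25 for C1ql3, 23 for C1ql2, 16 for Adgrb3, 15 for Cbln4 and 2 for Cbln3, against a median of 7 over 32851 promoters of the same length. C1ql4, which was nearly silent in the controls, thus had more CG than 85.8% of all promoters. C1ql3, whose RNA overlapped between the genotypes, had more than 81.6%. Exact matches on either strand were sought for TTCAGCACC and GGACAGCGC, which are the left and right parts of the RE1 motif bound by the repressor REST, and for AGGGGGCGC, the core of the CTCF motif. None of the 6 promoters held any of these letters, which occur in 0.371%, 0.405% and 1.25% of all promoters.

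The genes next to the 9 genes were compared as well, with earlier results of these data known when the genes were chosen. The authors had already named C1ql4 and Prph as higher in Kdm1a-ifKOs and reported that such genes often lie close together. Of 24 tested genes within 100 kb, 4 were higher in Kdm1a-ifKOs and 0 were lower (7 and 0 of 47 within 200 kb), beside 6.04% higher and 2.82% lower over all tested genes. Of the 4 tested genes within 100 kb of C1ql4, 2 were among those higher, the nearest on each side, and 2 did not pass the test. Prph, which encodes the intermediate filament peripherin and lies 25.1 kb from C1ql4, rose from counts of 30, 24 and 19 in the controls to 707, 805 and 710 in the Kdm1a-ifKOs (log2FC 4.88, standard error 0.127, adjusted p = 5.99e-11). Spats2, 38.1 kb away on the other side, rose from 32.5, 31.2 and 34.4 CPM to 41.0, 39.0 and 41.3 CPM (log2FC 0.31, adjusted p = 0.00982). The groups did not overlap for either gene, and both calls held in all 13 other fits. The nearest tested neighbours of C1ql2, Steap3 at 67.9 kb and Celrr at 744 kb, were at a log2FC of 0.39 (adjusted p = 0.0791) and 0.04 (adjusted p = 0.940). C1ql1 lies 38.4 kb from Gfap, the astrocyte filament gene (log2FC 0.38, adjusted p = 0.107), and 47.4 kb from Dcakd (log2FC 0.30, adjusted p = 0.0134, and 0.0742 without Kdm1a-ifKO replicate 1). Khnyn lies 0.555 kb from Cbln3 and was higher (log2FC 0.52, adjusted p = 8.01e-04), while the log2FC of Cbln3 itself was 0.16. Cbln2 had 0 tested genes within 200 kb, and its nearest neighbour Neto1, 204 kb away, was at a log2FC of -0.34 (adjusted p = 0.0839).

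The neighbours of the other genes included further called genes beside genes that were not called. Zfp423, a transcription factor gene 189 kb from Cbln1, was higher with a log2FC of 0.34 (adjusted p = 0.0236). Its call was lost with DESeq2 (0.0551), without control replicate 1 (0.0569) or 3 (0.0513) and without Kdm1a-ifKO replicate 3 (0.115). Fam210b, 302 kb from Cbln4, was higher with a log2FC of 0.28 (adjusted p = 0.0183), lost without Kdm1a-ifKO replicate 1 (0.0805) or 3 (0.0997). The remaining nearest neighbours, Rsu1 and Pter of C1ql3, Fth-ps3 of Cbln1, Socs6 of Cbln2, Nynrin of Cbln3, Dok5 of Cbln4, and Lmbrd1 and Gm9884 of Adgrb3, did not pass the test, with a log2FC from -0.52 for Gm9884 to 0.16 for Rsu1.

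CTCF loops of WT neurons were examined at the same genes, in a table of 27786 loops with at least 3 paired-end tags (PETs) each. With 1 library, these are descriptions of that library. An anchor lay within 10 kb of 5 of the 9 genes, namely C1ql2, C1ql3, C1ql4, Cbln1 and Cbln3, against 56.9% of all tested genes. C1ql4 had 20 such loops with 78 PETs in total, compared with a median of 1 loop over all tested genes. Of these 20 loops, 8 had their other anchor within 10 kb of Prph (26 PETs) and 3 within 10 kb of Spats2 (10 PETs). Each loop to Prph or Spats2 held only 3 or 4 PETs, near the lowest count in the table. With at least 5 PETs, 3 of the 20 loops remained (23 PETs), and these did not reach Prph or Spats2. With anchors that overlap C1ql4 itself, 7 of the 20 remained. The loop with the most PETs, 13, spanned 12.1 kb and had both anchors within 10 kb of C1ql4. C1ql2 had 7 loops, and 6 of these reached Steap3, whose RNA did not pass the test. A loop enclosed the whole gene for 7 of the 9 genes, and 83.1% of all tested genes lay inside a loop. Cbln2 and Adgrb3 were inside 0 loops. The shortest enclosing loop held C1ql4 as the only whole tested gene (14.4 kb). The same was true of C1ql1 (88.6 kb), C1ql2 (318 kb) and Cbln4 (713 kb). Genes only partly inside a loop were not counted, and part of Steap3 lies within the loop around C1ql2.

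**Figure D4:**
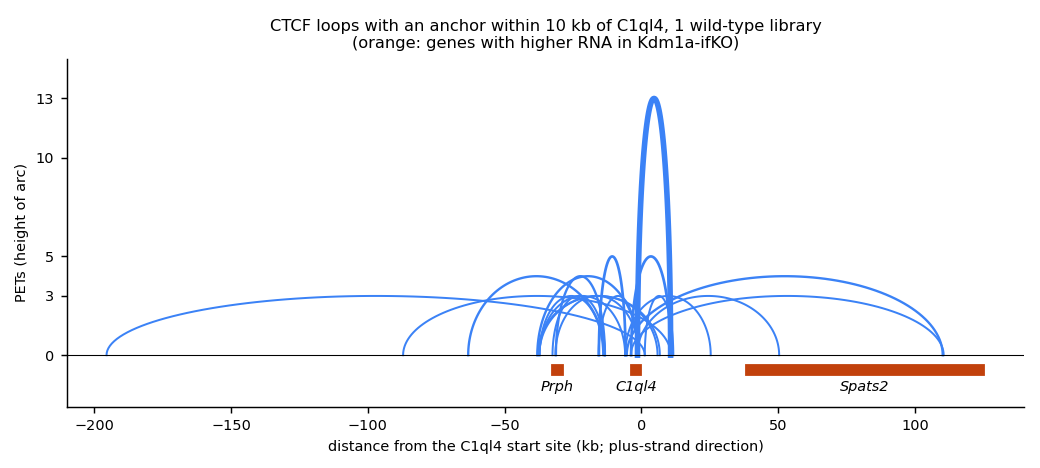
CTCF loops with an anchor within 10 kb of C1ql4, drawn as arcs between anchor midpoints against the distance from the C1ql4 start site in kb, with the height giving the PETs of each loop in 1 library of WT neurons. Orange bars are C1ql4 and its nearest tested neighbours, all higher in Kdm1a-ifKOs. Of the 20 loops, 8 end within 10 kb of Prph, each with 3 or 4 PETs, and the highest arc has 13 PETs.

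For each gene, the tested genes of at least 1 CPM whose level varied most like it within the genotypes were listed by Pearson's r over the 6 libraries, after centring log2 CPM on the genotype means. For C1ql4 these were Adprm, Emg1 and Gm5576, for C1ql1 Ascc1, Gm7180 and Cops6, for C1ql2 Surf6, Celf5 and Pnmal2, for C1ql3 Arhgef26, Paqr3 and Rgs7. For Cbln1 they were Plxnd1, Ltbp3 and Aldh16a1, for Cbln2 Gar1, Col6a2 and Slc25a18, for Cbln3 Rnf141, Mgea5 and Rtn4, for Cbln4 Fcf1, Nkd1 and 1700008J07Rik, and for Adgrb3 Mff, Kcnmb4 and Lpl. All had an r between 0.991 and 0.999. Between 69 and 168 genes had an r over 0.95 with a given gene, so 6 libraries do not single out any of them.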

How the data were processed

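RNA-seq libraries of the hippocampus of 3 control and 3 Kdm1a-ifKO mice were compared. The authors made the deposited gene counts from single-end poly-A reads with cutadapt 1.18, HISAT2 2.1.0 (mm10) and HTSeq 0.11.1 (versions from the submitters' processing notes), with reads of mapq over 30, and the strand setting of the counting is not given in the sources used here. The authors made the PET counts of CTCF loops with ChIA-PIPE from 1 library and kept loops with at least 3 PETs. Gene counts and PET counts were used as raw counts, so the PET counts depend on the read depth of that library.

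Counts were tested with edgeR 4.0.16 in R 4.3.3 (filterByExpr, TMM, a robust quasi-likelihood F test on genotype alone, Benjamini-Hochberg over 16799 genes), and an adjusted p under 0.05 was called. The procedure was tested on simulated data, where false calls stayed near the nominal share with trended dispersions and exceeded it with gene-wise dispersions, so calls near the threshold are less certain than their adjusted p states. p-values measure the spread between mice, and 18985542 to 19469947 counts per library bound the precision at low counts. TPM used summed exon lengths of GENCODE M21 (GRCm38), which also gave the coordinates. Ratios over few counts carry an exact binomial 95% interval. Positions, promoters and loops were analysed in Python 3.11.15 (numpy 2.4.6, pandas 2.3.3, scipy 1.17.1). Loop anchors were assigned to gene bodies at up to 10 kb.

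The genes and lists were chosen with earlier results of these data known. Named are the 9 genes, list members with an adjusted p under 0.05 or needed for their list, Kdm1a, neighbours called within 100 kb or nearest on each side, and the 3 genes most alike in level. Results for some listed genes are not reported here. Slc17a6, Prkcd, Vip, Npy, Slc1a3, Kl, Gabra6, Fat2 and the microglial markers belong to marker lists. Alternatives were DESeq2 1.42.0, its size factors in edgeR, upper-quartile factors, no filter or at least 10 summed counts, a replicate block, libraries left out, and other distances and PET thresholds. The fits of the neighbours beyond distance were added after the data were seen. Replicate numbers were not used as pairs in the main fit. The correlations of the deviations of same-numbered libraries were -0.0316, -0.0886 and -0.144, and the highest among differently numbered libraries was 0.157. With 3 libraries per genotype, these values cannot settle whether the samples were paired.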

Additional observations from a re-analysis of the deposited data

How the results depend on the processing

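C1ql1 and C1ql4 kept their direction and an adjusted p under 0.05 in all 13 other fits. C1ql2 and Cbln2 kept their direction in all of them and lost the call in 3 fits each, all with a library left out. The number of the 9 genes called, 4, ranged from 2 to 4 when single libraries were left out, with 2 (C1ql1 and C1ql4) without Kdm1a-ifKO replicate 1 and without Kdm1a-ifKO replicate 3, while 4 remained without control replicate 3 and Kdm1a-ifKO replicate 2 together. The number of partner, organizer and C1q-domain genes called, 7, was 11 with DESeq2, 15 without a filter on low counts and 4 to 8 with single libraries left out. Leaving out Kdm1a-ifKO replicate 3 gave the 4. The number of neighbouring genes called, 4, was 7 within 200 kb and 3 to 5 with single libraries left out. Over all genes, 1487 were called, with 2537 without a filter, 899 without Kdm1a-ifKO replicate 1 and 783 without Kdm1a-ifKO replicate 3. The causes of these shifts were not tested. With a replicate block, the same 4 genes were called, and 7 of the listed genes, with C1qc gained and Caprin2 lost (adjusted p = 0.052), and 5 neighbours within 100 kb, while Zfp423 lost its call (adjusted p = 0.0538). C1ql4 and Cbln3 are limited by counts, with 2 and 46 control reads in total.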
